A study of Mus musculus with 79 samples.

Results

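The aryl hydrocarbon receptor gene Ahr and 5 of its direct targets, Cyp1a1, Cyp1a2, Cyp1b1, Ahrr and Tiparp, were followed in the lungs of smoke-exposed and sham-exposed mice. The members were taken by name, 1 row of the array table for each, which makes 6 of 31350 rows. Each symbol matched a single row, which carried the transcript NM_013464 for Ahr, NM_001136059 for Cyp1a1, NM_009993 for Cyp1a2, NM_009994 for Cyp1b1, NM_009644 for Ahrr and NM_178892 for Tiparp. Smoke raised Cyp1a1 and Cyp1b1 in both genotypes and both sexes at both durations, raised Ahrr past the threshold at 1 day, and gave Tiparp, Cyp1a2 and Ahr no called difference.

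Total RNA of the right lung of 79 mice was measured on 1 Affymetrix moGene2.1 array per mouse. The mice were C57BL/6J wild-type animals (WT, n = 40) and Scnn1b-tg littermates (βENaC, n = 39), 5 to 7 weeks old, males and females. In βENaC mice the transgene is overexpressed in the epithelial cells of the airways. Smoke-exposed mice breathed mainstream and side-stream smoke of 6 unfiltered 3R4F research cigarettes per day for 1 day or for 5 consecutive days, sham-exposed mice sat in the same chamber in room air, and lungs were taken 4 hours after the last exposure. Genotype, exposure, sex and duration gave 16 groups of 4 to 6 mice, so that 20 sham-exposed mice stood against 20 smoke-exposed ones at 1 day, and 20 against 19 at 5 days. The deposited values are normalized log2 intensities, so a difference of 1 is a doubling.

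The aryl hydrocarbon receptor (AHR) is a ligand-activated transcription factor of the bHLH-PAS family. Without ligand it is held in the cytoplasm by HSP90 and co-chaperones. Planar aromatic compounds, among them the polycyclic aromatic hydrocarbons of tobacco smoke, bind it, and it then enters the nucleus, pairs with ARNT and binds xenobiotic response elements. Its best-known targets are the cytochromes P450 CYP1A1, CYP1A2 and CYP1B1, which oxidise the same aromatic compounds. CYP1A2 is foremost a liver enzyme. Other targets act back on the receptor: AHRR, the AHR repressor, competes for ARNT and for the response elements, and TIPARP is an ADP-ribosyltransferase that lowers AHR activity.

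The upstream sequence of the targets is shown because the response elements share a short core, GCGTG on one strand and CACGC on the other. These letters are also part of the hypoxia response element core that other bHLH-PAS factors bind. The 250 bases upstream of the annotated start were taken from RefSeq promoters on GRCm38.p6, which held 5 of the 6 members (all but Ahr), and are written 5′ to 3′ on the strand of the gene with each core in capitals. They are those of Cyp1a1 at chr9:57697363-57697612 (plus strand), Cyp1b1 at chr17:79715062-79715311 (minus strand) and Ahrr at chr13:74292332-74292581 (minus strand), the 3 targets called higher after smoke, and of Cyp1a2 at chr9:57683656-57683905 (minus strand), which was not called.
Cyp1a1: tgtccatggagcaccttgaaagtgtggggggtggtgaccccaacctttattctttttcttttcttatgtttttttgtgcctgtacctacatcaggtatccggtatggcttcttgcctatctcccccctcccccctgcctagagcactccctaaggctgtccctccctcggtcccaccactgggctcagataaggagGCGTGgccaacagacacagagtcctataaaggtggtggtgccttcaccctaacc
Cyp1b1: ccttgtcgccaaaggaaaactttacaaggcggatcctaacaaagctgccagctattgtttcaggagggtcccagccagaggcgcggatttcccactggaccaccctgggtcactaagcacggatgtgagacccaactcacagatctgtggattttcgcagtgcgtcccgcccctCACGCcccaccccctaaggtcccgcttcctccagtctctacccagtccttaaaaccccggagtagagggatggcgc
Ahrr: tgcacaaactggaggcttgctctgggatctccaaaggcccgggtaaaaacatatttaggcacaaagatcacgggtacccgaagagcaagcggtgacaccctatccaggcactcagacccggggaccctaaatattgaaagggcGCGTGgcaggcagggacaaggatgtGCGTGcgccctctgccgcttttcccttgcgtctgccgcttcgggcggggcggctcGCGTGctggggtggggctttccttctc
Cyp1a2: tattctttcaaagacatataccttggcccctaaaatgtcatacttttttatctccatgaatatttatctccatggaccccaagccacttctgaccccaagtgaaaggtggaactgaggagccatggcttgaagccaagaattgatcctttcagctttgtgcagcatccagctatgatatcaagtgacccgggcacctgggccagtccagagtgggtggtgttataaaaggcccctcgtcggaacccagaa

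The core began 54 bases upstream of the start in Cyp1a1 and 76 bases upstream in Cyp1b1. In Ahrr it was present at 3 places, 107, 82 and 27 bases upstream, and 1 of these matched the longer form TNGCGTG. Tiparp, at chr3:65528197-65528446 (plus strand), held 1 core 170 bases upstream, and the Cyp1a2 window held none. Of all 32851 windows of this length in the table, 28.2% held the core at least once, 2.77% held it 3 times or more and 4.10% held the longer form. A match is a run of letters and not a measured binding site. The response elements best described for Cyp1a1 lie in an enhancer farther upstream than this window reaches.

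Some points about the samples and arrays bear on all results. The groups follow titles and characteristics, and for 13 WT mice of the smoke arms the source name says βENaC instead. The level of Scnn1b, the gene that the transgene overexpresses, ranged from 8.42 to 9.47 in the 40 mice grouped as WT. In the 39 grouped as βENaC it ranged from 11.52 to 11.88, with no overlap. The arrays of 4 mice correlated least with the rest (median r 0.978 to 0.983, against 0.987 for the next): βENaC sham male replicate 1 at 1 day, βENaC smoke female replicate 3, WT smoke female replicate 2 and βENaC sham male replicate 3 at 5 days. Values without these 4 are given wherever a call changed. The mean of 5 markers of alveolar type 2 cells, a cell type of the lung, ranged from 11.76 to 12.18 between the sham-exposed mice at 1 day. In RNA of a whole organ, fewer cells of a type and less RNA per cell cannot be told apart. All mice of a group were different animals, and p-values measure the spread between them. Each duration was fitted with limma with terms for genotype, exposure and sex, Benjamini-Hochberg adjustment ran over all 31350 rows, and a gene was called at an adjusted p under 0.05 with a coefficient beyond 0.379 in size (1.3-fold).

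**Figure D1:**
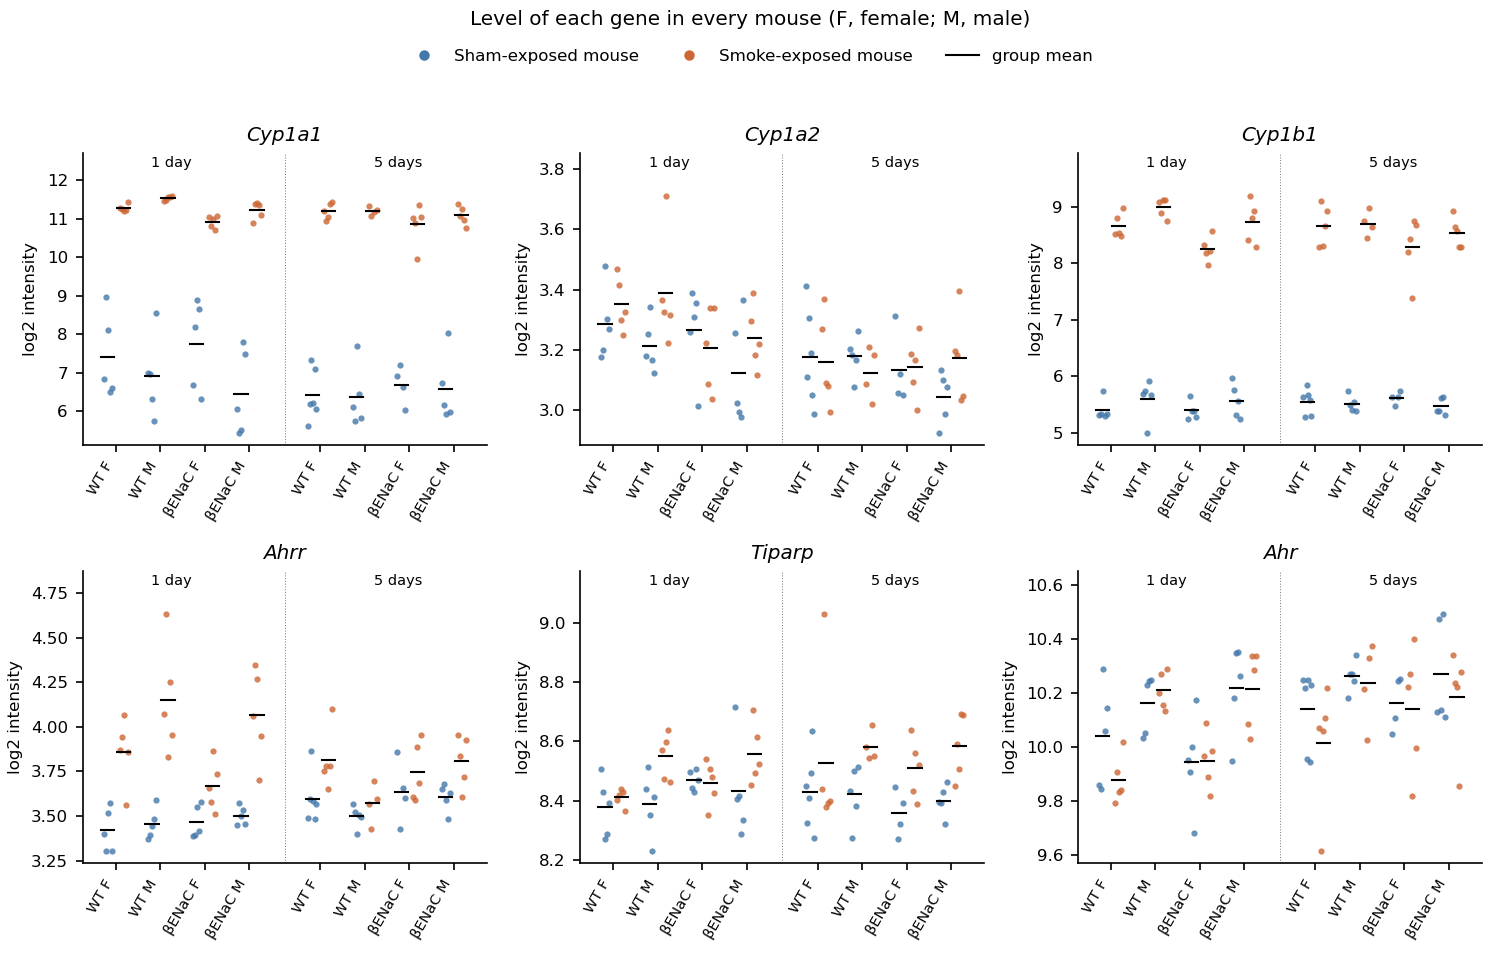
Log2 intensity (vertical axis, its own scale in each panel) of the 6 genes in all 79 mice by genotype and sex, 1 day on the left and 5 days on the right of each panel. Blue points are sham-exposed and orange points smoke-exposed mice, and black lines are group means. For Cyp1a1 and Cyp1b1 all 8 smoke groups sit above all 8 sham groups, and for Ahr the points of both exposures lie in the same range.

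In the order of the 16 group means, the 8 smoke groups of Cyp1a1 came first, from 11.53 ± 0.05 (SD, n = 5) in WT males at 1 day to 10.86 ± 0.53 (SD, n = 5) in βENaC females at 5 days, and the 8 sham groups followed, from 7.75 ± 1.18 (SD, n = 5) in βENaC females at 1 day to 6.36 ± 0.80 (SD, n = 5) in WT males at 5 days. Of the 15 pairs of neighbours in this order, 13 had overlapping ranges. The exceptions were the highest and next-highest groups (WT smoke males and WT smoke females at 1 day) and the step from smoke to sham. For Cyp1b1 the same split held, and 14 of 15 neighbouring pairs overlapped. The plot of all mice shows less order for the others. Every neighbouring pair overlapped for Ahrr, whose 7 highest groups were smoke groups, and for Tiparp, whose 6 highest were. Every pair overlapped for Cyp1a2 and Ahr as well. The 8 male groups of Ahr were all among its 9 highest.

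Cyp1a1, the main inducible P450 of the pathway outside the liver, was 17.3-fold higher in smoke-exposed mice at 1 day and 24.1-fold higher at 5 days. At 1 day, sham-exposed mice ranged from 5.43 to 8.98 with a median of 6.90, and smoke-exposed mice from 10.72 to 11.59 with a median of 11.26. At 5 days the sham-exposed mice ranged from 5.60 to 8.04 (median 6.20) and the smoke-exposed mice from 9.96 to 11.43 (median 11.08). The groups did not overlap, with 1.74 between the lowest smoke-exposed and the highest sham-exposed mouse at 1 day and 1.92 at 5 days. The study had set aside 1 further mouse as mislabelled for exposure, judged in part by its gene expression, so the lack of overlap is among the mice it kept. Of all rows, 0.0287% (9 rows) had every smoke-exposed above every sham-exposed mouse at 1 day and 0.0255% (8 rows) at 5 days. The coefficients were 4.11 (SE 0.25, 95% confidence interval 3.61 to 4.62, limma adjusted p = 1.19e-15) and 4.59 (SE 0.17, 4.24 to 4.94, limma adjusted p = 3.25e-22).

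Without smoke, Cyp1a1 differed more between mice than nearly any other row. After removal of genotype and sex means, its SD among sham-exposed mice at 1 day was 1.11, against a median of 0.163 over all rows, which put it at place 49 of 31350. The 5 WT females were at 6.84, 8.98, 8.10, 6.49 and 6.59, and the 5 WT males at 6.99, 6.97, 6.30, 5.75 and 8.55. The βENaC females were at 6.68, 8.20, 8.89, 8.66 and 6.31, and the βENaC males at 6.04, 5.43, 5.50, 7.81 and 7.49. High and low mice thus stood side by side in each of these groups. At 5 days the SD among sham-exposed mice was 0.735. Among smoke-exposed mice it was 0.148 at 1 day, near the median row, and 0.324 at 5 days.

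Cyp1b1, a P450 found mainly outside the liver, was 8.92-fold higher with smoke at 1 day and 8.05-fold higher at 5 days. At 1 day the sham-exposed mice ranged from 5.00 to 5.97 (median 5.40) and the smoke-exposed mice from 7.97 to 9.18 (median 8.66). At 5 days the ranges were 5.28 to 5.85 (median 5.57) and 7.39 to 9.09 (median 8.63). The groups again did not overlap, with gaps of 2.00 and 1.54. The coefficients were 3.16 (SE 0.081, limma adjusted p = 1.10e-28) and 3.01 (SE 0.090, limma adjusted p = 2.01e-25). The lowest smoke-exposed mouse at 5 days, at 7.39, was βENaC female replicate 3, which also had the lowest Cyp1a1 of the smoke-exposed mice, 9.96, and is 1 of the 4 arrays named above. Cyp1a2, whose row lay among the 30% with the lowest mean, ranged from 2.98 to 3.48 in sham-exposed and 3.04 to 3.71 in smoke-exposed mice at 1 day, and from 2.93 to 3.41 and 2.99 to 3.40 at 5 days. The ranges overlapped, and the coefficients were 0.07 (95% confidence interval -0.01 to 0.16, limma adjusted p = 0.332) and 0.02 (-0.06 to 0.10, limma adjusted p = 0.875).

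Ahrr, the repressor, whose row had a low mean of 3.68 (percentile 38.1 of all rows), was 1.39-fold higher with smoke at 1 day. Sham-exposed mice then ranged from 3.31 to 3.59 (median 3.45) and smoke-exposed mice from 3.51 to 4.63 (median 3.91). Of the 20 smoke-exposed mice, 17 lay above every sham-exposed mouse, and the coefficient was 0.47 (SE 0.060, limma adjusted p = 4.49e-07). At 5 days sham-exposed mice ranged from 3.40 to 3.87 (median 3.58) and smoke-exposed mice from 3.43 to 4.10 (median 3.72), and 5 of 19 smoke-exposed mice lay above every sham-exposed mouse. The 5-day coefficient was 0.15 (SE 0.045, limma adjusted p = 0.0321), short of the fold threshold, and its adjusted p was 0.0614 without the 4 arrays. The adjusted p was also above 0.05, up to 0.0577, when any 1 of 4 mice was left out (βENaC sham female replicate 2, WT smoke female replicate 5 and βENaC smoke males replicates 1 and 5).

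Tiparp, the other feedback gene, differed by less. Its sham-exposed and smoke-exposed mice ranged from 8.23 to 8.72 (median 8.42) and 8.35 to 8.71 (median 8.48) at 1 day. The ranges overlapped, and the coefficient was 0.08 (SE 0.032, limma adjusted p = 0.135). Without the 4 arrays, of which only βENaC sham male replicate 1 was a 1-day mouse, the coefficient was 0.09 with an adjusted p of 0.0444. At 5 days the ranges were 8.27 to 8.63 (median 8.40) and 8.38 to 9.03 (median 8.54), and the coefficient was 0.15 (SE 0.042, limma adjusted p = 0.0230), below the fold threshold. The mouse at 9.03, WT smoke female replicate 2, is among the 4 arrays, and without it the coefficient was 0.12 (limma adjusted p = 0.0238). Ahr itself ranged from 9.68 to 10.35 and 9.79 to 10.34 at 1 day and from 9.94 to 10.49 and 9.61 to 10.40 at 5 days, sham-exposed before smoke-exposed. These ranges overlapped almost fully, with coefficients of -0.03 (95% confidence interval -0.12 to 0.06, limma adjusted p = 0.779) and -0.07 (-0.18 to 0.04, limma adjusted p = 0.579).

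Of the 6 members, 3 were called higher with smoke at 1 day, where 0.485% of all rows were, and 2 at 5 days, where 0.577% were. By adjusted p alone, 4 of 6 were higher at 5 days, against 3.17% of all rows. No member was called lower, where 337 of all rows were called in either direction at 1 day and 362 at 5 days. Counts this small would seldom give a lower call among 6 rows, so this does not set the members apart.

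**Figure D2:**
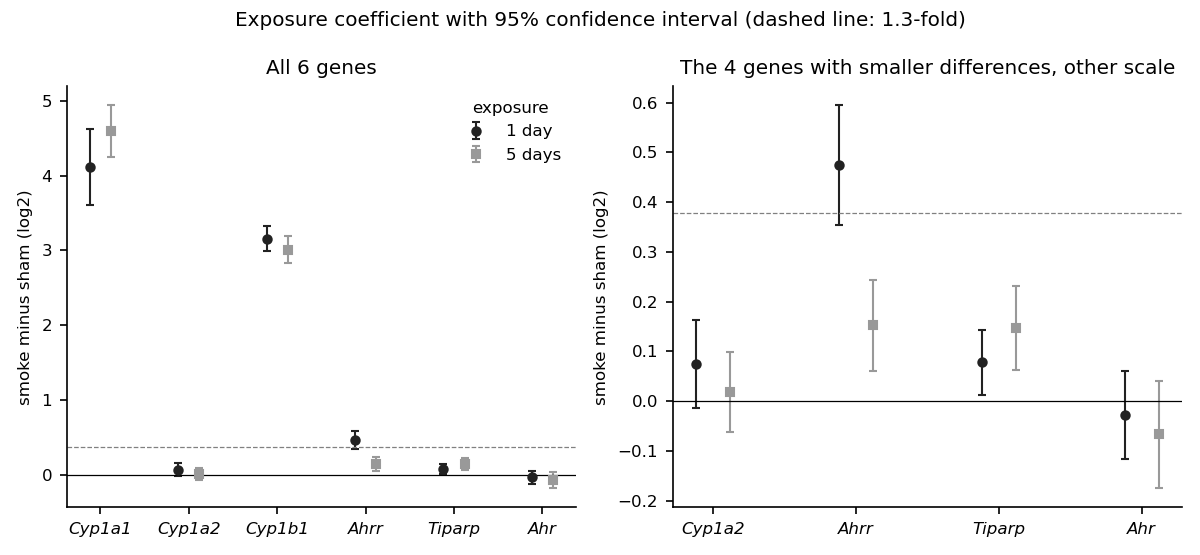
Exposure coefficient (smoke minus sham, log2 scale) of each gene at 1 day (black circles) and 5 days (grey squares) with its 95% confidence interval. The dashed line is the 1.3-fold threshold, and the right panel repeats the 4 genes with the smaller differences on an enlarged scale, where Ahrr passes the line at 1 day (0.47) and not at 5 days (0.15).

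Within each genotype and sex, the response was estimated at both durations as smoke minus sham from the 16 group means. Cyp1a1 and Cyp1b1 were called higher in 8 of 8 such contrasts. The coefficient of Cyp1a1 was 3.88, 4.62, 3.18 and 4.78 at 1 day in WT females, WT males, βENaC females and βENaC males, and 4.79, 4.85, 4.17 and 4.53 at 5 days. That of Cyp1b1 was 3.25, 3.38, 2.85 and 3.14 at 1 day and 3.10, 3.18, 2.66 and 3.07 at 5 days, in the same order. βENaC females had the lowest estimate of both genes at both durations, and whether genotype or sex changed the response is tested through the interactions that follow. At 1 day βENaC females also had the highest sham mean of Cyp1a1, 7.75. Ahrr was called in 3 of 8 contrasts, all at 1 day: 0.69 in WT males (limma adjusted p = 2.28e-06), 0.56 in βENaC males (limma adjusted p = 2.88e-04) and 0.44 in WT females (limma adjusted p = 0.0162), and it was 0.20 in βENaC females (limma adjusted p = 0.359). The call in WT females was lost when WT smoke female replicate 2 or 3, or WT sham female replicate 2 or 5, was left out. Cyp1a2, Tiparp and Ahr were called in none. The share of all rows called higher in these contrasts was, again in this order, 0.179%, 0.411%, 0.507% and 0.574% at 1 day, and 0.271%, 0.124%, 0.0606% and 0.313% at 5 days.

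**Figure D3:**
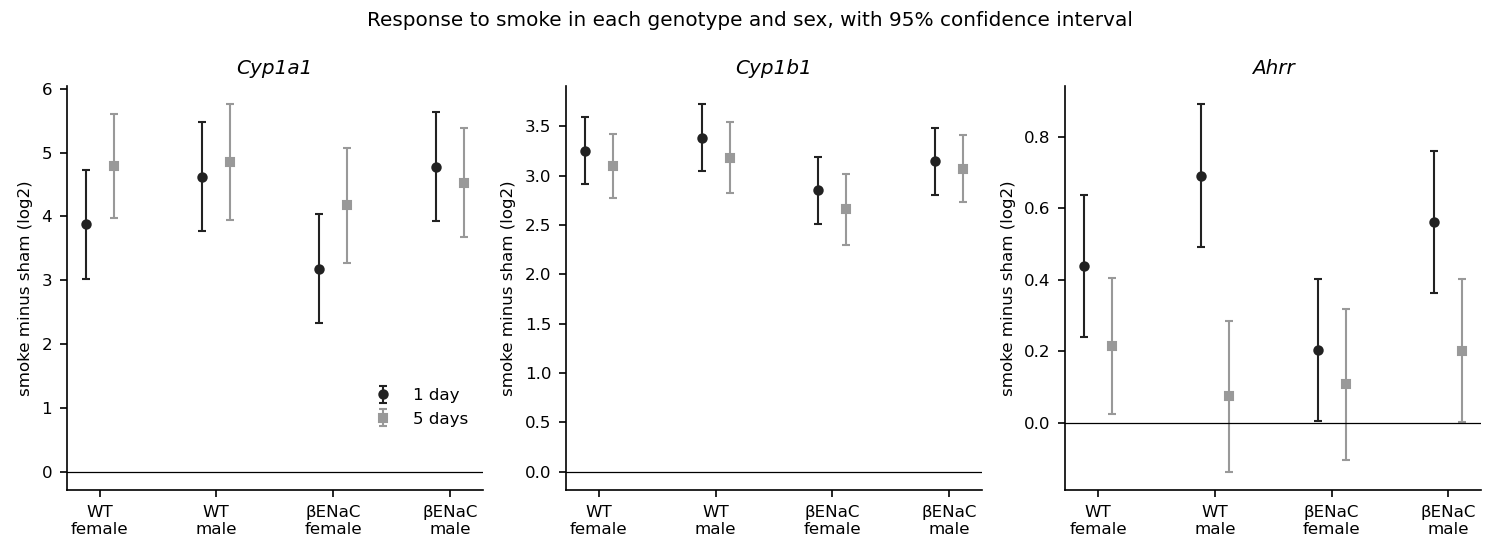
Response to smoke (smoke minus sham, log2 scale) of Cyp1a1, Cyp1b1 and Ahrr in each genotype and sex at 1 day (black circles) and 5 days (grey squares), with 95% confidence intervals. All 8 intervals of Cyp1a1 and of Cyp1b1 lie far above 0, while those of Ahrr are lower, with the highest estimate, 0.69, in WT males at 1 day.

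For the interaction of exposure with genotype or sex, no member passed limma's moderated F-test at 1 day, where 0.00638% of all rows (2 rows) did, or at 5 days, where 0.0% did. At an unadjusted p under 0.05 there was 1 member (Ahrr) and 2275 rows at 1 day, and no member and 1084 rows at 5 days. An ordinary linear model called no row at either duration. The exposure by sex term of Cyp1a1 at 1 day was 1.17 (95% confidence interval 0.21 to 2.13, limma adjusted p = 0.732), the male response being the larger. Sham-exposed females averaged 7.57 ± 1.09 (SD, n = 10) and sham-exposed males 6.68 ± 1.05 (SD, n = 10). After smoke the means were 11.10 ± 0.22 and 11.38 ± 0.22 (SD, n = 10 each). The term thus holds the lower mean of the sham-exposed males as well as the higher mean of the smoke-exposed ones. The exposure by sex term of Ahrr was 0.31 (0.09 to 0.52, limma adjusted p = 0.655) and that of Tiparp 0.13 (0.00 to 0.26, limma adjusted p = 0.779). These 3 members and 1984 of the 31350 rows had an unadjusted p under 0.05 for this term. The exposure by genotype term of Cyp1b1 at 1 day was -0.32 (-0.63 to -0.01, limma adjusted p = 0.708), and that of Cyp1a1 was -0.27 (-1.23 to 0.69, limma adjusted p = 0.942).

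The responses at 1 and 5 days were compared with an exposure by duration term over all 79 mice. Ahrr was the 1 member of 6 that passed, against 0.612% of all rows, with a response smaller by 0.31 at 5 days (SE 0.082, limma adjusted p = 0.0439). This call is narrow, since omission of single mice gave adjusted p-values of 0.0261 to 0.0648, above 0.05 for 34 of the 79, with coefficients of -0.34 to -0.28. Cyp1a1 (0.48, limma adjusted p = 0.614), Cyp1b1 (-0.16, limma adjusted p = 0.738), Tiparp (0.07, limma adjusted p = 0.714), Cyp1a2 (-0.06, limma adjusted p = 0.807) and Ahr (-0.04, limma adjusted p = 0.923) did not pass.

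The level without smoke enters each response. Mice of 1 and 5 days were different animals, so within an exposure duration cannot be told apart from the day of handling. Among sham-exposed mice, no member passed between 5 days and 1 day in limma, where 0.0766% of all rows did. The ordinary linear model called none, and 4 members, with 3676 of the 31350 rows, had an unadjusted p under 0.05. Those 4 were Cyp1a1 at -0.63 (limma adjusted p = 0.361), Cyp1a2 at -0.09 (limma adjusted p = 0.359), Ahrr at 0.12 (limma adjusted p = 0.125) and Ahr at 0.12 (limma adjusted p = 0.301). Among smoke-exposed mice, Cyp1a2 was the 1 member that passed, where 7.68% of all rows did, with a level lower by 0.14 at 5 days (SE 0.043, limma adjusted p = 0.0307). Without WT smoke female replicate 5 or WT smoke male replicate 4 at 5 days, its adjusted p was 0.0520 and 0.0517. Ahrr was at -0.19 in the same comparison (limma adjusted p = 0.108).

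For genotype, no member was called at 1 day, where 1.54% of all rows were, or at 5 days, where 2.52% were. The ordinary linear model called none either. At an unadjusted p under 0.05 there were 2 members and 5447 rows at 1 day, Cyp1b1 at -0.18 and Cyp1a2 at -0.10 (βENaC minus WT), and 0 members and 7058 rows at 5 days. Among smoke-exposed mice of both durations, tested by adjusted p alone, 2 members passed, where 7.06% of all rows did, and both were lower in βENaC mice. Cyp1a1 ranged from 10.93 to 11.59 (median 11.27) in the 19 WT and from 9.96 to 11.40 (median 11.05) in the 20 βENaC mice, a difference of -0.29 (SE 0.075, limma adjusted p = 0.0132), and without the 4 arrays it was -0.25 (limma adjusted p = 0.00527). Cyp1b1 ranged from 8.29 to 9.12 (median 8.75) and from 7.39 to 9.18 (median 8.42), a difference of -0.31 (SE 0.096, limma adjusted p = 0.0414). The ranges of the genotypes overlapped for both genes, and both differences were below the fold threshold used at each duration. The Cyp1b1 call was lost without the 4 arrays (-0.23, limma adjusted p = 0.0952), in the ordinary linear model (adjusted p = 0.0542) and in 18 of 39 fits with 1 mouse left out. Among sham-exposed mice the difference was 0.11 for Cyp1a1 (95% confidence interval -0.46 to 0.68, limma adjusted p = 0.884) and -0.01 for Cyp1b1 (-0.15 to 0.13, limma adjusted p = 0.953).

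Cell-type markers also differed between the genotypes of the smoke-exposed mice, by adjusted p alone with no fold threshold. Of 3 alveolar macrophage markers measured, 2 were higher in βENaC mice, Marco by 0.77 (limma adjusted p = 0.0145) and Chil3 by 0.71 (limma adjusted p = 2.07e-04), and the list mean ranged from 8.64 to 9.97 in WT and 8.84 to 10.53 in βENaC mice. Of 3 club cell markers, Scgb1a1 was lower by 0.08, Cyp2f2 was lower by 0.30 and Scgb3a1 was higher by 0.24, with list means of 12.31 to 12.61 and 12.10 to 12.63. Of 5 endothelial markers, Kdr and Tek were lower, by 0.25 and 0.21, with list means of 10.30 to 10.73 and 10.02 to 10.67. By the same rule, 3 of 5 alveolar type 2 and 1 of 3 hepatocyte markers were higher. Lower were 2 of 4 alveolar type 1 and 1 of 4 smooth muscle markers. No ciliated cell, fibroblast or neutrophil marker passed (0 in the ordinary linear model, unadjusted p under 0.05 for 1, 3 and 1). The part of these in the differences of Cyp1a1 and Cyp1b1 was not tested.

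For sex, no member was called at 1 day by adjusted p and fold, where 0.836% of all rows were, and the ordinary linear model called none. By adjusted p alone, 3 of 6 members were higher in males at 1 day, against 7.82% of all rows. The receptor had the smallest p of these. Ahr ranged from 9.68 to 10.29 (median 9.97) in sham-exposed females and from 9.95 to 10.35 (median 10.24) in sham-exposed males. After smoke it ranged from 9.79 to 10.09 (median 9.90) in females and from 10.03 to 10.34 (median 10.23) in males. Male medians were higher in both arms, the ranges overlapped, and the coefficient was 0.25 (SE 0.044, limma adjusted p = 1.27e-04). Cyp1b1 was higher in males by 0.29 (SE 0.081, limma adjusted p = 0.0140) and Ahrr by 0.19 (SE 0.060, limma adjusted p = 0.0349), of which the latter was above 0.05 in 8 of 40 fits with 1 mouse left out (up to 0.0588).

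At 5 days no member was called for sex, where 0.198% of all rows were, and the ordinary linear model called none. The 1 member with an unadjusted p under 0.05 was Ahr, at 0.12 (95% confidence interval 0.01 to 0.23, limma adjusted p = 0.367). Among smoke-exposed mice of both durations, Ahr was the 1 member that passed by adjusted p, where 4.41% of all rows did, at 0.22 (SE 0.052, limma adjusted p = 0.00994). Among sham-exposed mice it was 0.16 (limma adjusted p = 0.0662). At 1 day, 2 of 5 fibroblast markers were higher in males, Col1a1 by 0.50 and Col3a1 by 0.51, and 1 of 3 neutrophil markers, Retnlg, was lower by 0.62. Their part in the difference of Ahr was not tested.

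The members were also compared between mice of one exposure and duration, as deviations from the means of each genotype and sex. Of the 20 relations of Cyp1a1 with the other 5 members, none had an adjusted permutation p under 0.05. Among smoke-exposed mice, Cyp1a1 and Cyp1b1 had r = 0.66 and rho = 0.60 at 1 day (n = 20, permutation p = 0.0210 and 0.0300, adjusted 0.128 and 0.205) and r = 0.74 and rho = 0.56 at 5 days (n = 19, permutation p = 0.0119 and 0.0308, adjusted 0.119 and 0.205). Without the 2 mice farthest from the median Cyp1a1, r was 0.67 and 0.42. Among sham-exposed mice the same r was 0.09 at 1 day and 0.18 at 5 days. Cyp1a1 and Ahr had r = 0.65 and rho = 0.61 among smoke-exposed mice at 5 days (n = 19, permutation p = 0.00506 and 0.0115, adjusted 0.101 and 0.205), and r = 0.49 without the 2 farthest mice. At 1 day that r was 0.28, and -0.06 without the 2 farthest mice, and among sham-exposed mice it was -0.14 and -0.12 at 1 and 5 days. Cyp1a1 and Tiparp had, among smoke-exposed mice at 5 days, r = -0.43 and rho = -0.48 (n = 19, permutation p = 0.0256 and 0.0485, adjusted 0.128 and 0.243), and r = -0.54 without the 2 farthest mice, against r = 0.37 at 1 day.

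Among the 21770 other rows with a symbol, those most like Cyp1a1 over all 79 mice were Cyp1b1 (r = 0.943), Nqo1 (0.940), Aldh3a1 (0.926), Adh7 (0.900) and Cbr3 (0.900). All mice of both exposures enter these r values, which the smoke difference alone can set, and they are given as a description. Nqo1 reduces quinones, Aldh3a1 oxidises aldehydes, Adh7 is an alcohol and retinol dehydrogenase and Cbr3 a carbonyl reductase. The row most like Cyp1b1 was Nqo1 (0.972), the row most like Ahrr was Gclm (0.693), which encodes a subunit of the glutathione synthesis enzyme, and that most like Tiparp was Nampt (0.705), an enzyme of NAD synthesis. Vav3 (0.507) was most like Cyp1a2 and Sox4 (0.761) most like Ahr. The deviations of Cyp1a1 among the 40 sham-exposed mice were most like those of Reep6 (0.712), Nsdhl (0.702), Ssbp2 (0.697), Gstk1 (0.694) and Efcab2 (0.692). None of the genes most like it over all mice was among these.

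Other genes of the pathway were grouped by role. Of 7 genes of conjugating and oxidising enzymes of the AHR battery and their regulator Nfe2l2, 4 were measured, and 3 of them were called higher at both durations. Nqo1 rose by 2.87 at 1 day and 2.64 at 5 days, Aldh3a1 by 2.84 and 2.39, and Gsta1, a glutathione transferase, by 1.63 and 0.58. The smaller response of Gsta1 at 5 days passed the exposure by duration test (-1.06, limma adjusted p = 0.00196). Nfe2l2, which encodes NRF2, was at 0.27 and 0.23 (limma adjusted p = 1.24e-08 and 6.37e-08), below the fold threshold. The median coefficient of these 4 genes was 2.24 and 1.48, against 0.01 and -0.00 over all rows. The study lists Nqo1 in a gene cluster whose pathways include an oxidative stress response through NRF2. The parts of AHR and NRF2 in the responses of these genes were not tested. Nqo1, like Cyp1a1, was lower in βENaC than in WT mice among the smoke-exposed, by 0.45 (limma adjusted p = 0.00871).

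The partners of the receptor showed no called difference for exposure. Of 6 genes for chaperones and dimer partners, 5 were measured. For exposure, 0 were called at either duration in limma or in the ordinary linear model (unadjusted p under 0.05 for 1 and 2 genes). Arnt, the dimer partner, was at 0.09 (limma adjusted p = 0.0239) and 0.12 (limma adjusted p = 0.0124), below the fold threshold. The median exposure coefficient of this list was 0.04 and -0.04. For genotype, 1 of the 5 was called higher in βENaC mice at each duration. The highest genotype coefficients of the list were 0.41 at 1 day and 0.80 at 5 days. Among smoke-exposed mice 1 passed by adjusted p alone, with a highest coefficient of 0.51. The part of this in the genotype differences of Cyp1a1 and Cyp1b1 was not tested. Of 8 other genes reported to respond to AHR ligands, 1 was called at 1 day, the amino acid transporter Slc7a5 at 0.41 (limma adjusted p = 0.00142), and 0 at 5 days (0 in the ordinary linear model, 5 at an unadjusted p under 0.05). At 5 days Nedd9 was at -0.18 (limma adjusted p = 1.14e-05) and Xdh at 0.28 (limma adjusted p = 0.00723), both below the fold threshold. The median of this list was 0.06 and 0.07.

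P450 enzymes need electrons and haem. Of 5 such supply genes, 4 were measured and 0 were called at either duration in limma or the ordinary linear model (unadjusted p under 0.05 for 0 and 2 genes), with medians of 0.03 and 0.08. Alas1, the first enzyme of haem synthesis, was at 0.02 at 1 day and 0.21 at 5 days (limma adjusted p = 2.99e-05), below the fold threshold. Por, the electron donor of these enzymes, was at 0.06 and 0.13 (limma adjusted p = 0.585 and 0.102). Of 9 other bHLH-PAS genes, 0 were called at 1 day (0 in the ordinary linear model, 2 at an unadjusted p under 0.05) and 1 at 5 days, the clock factor Npas2, lower by 0.46 (limma adjusted p = 0.00905). The medians were 0.02 and 0.03, and Hif1a was at -0.06 and -0.09.

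**Figure D4:**
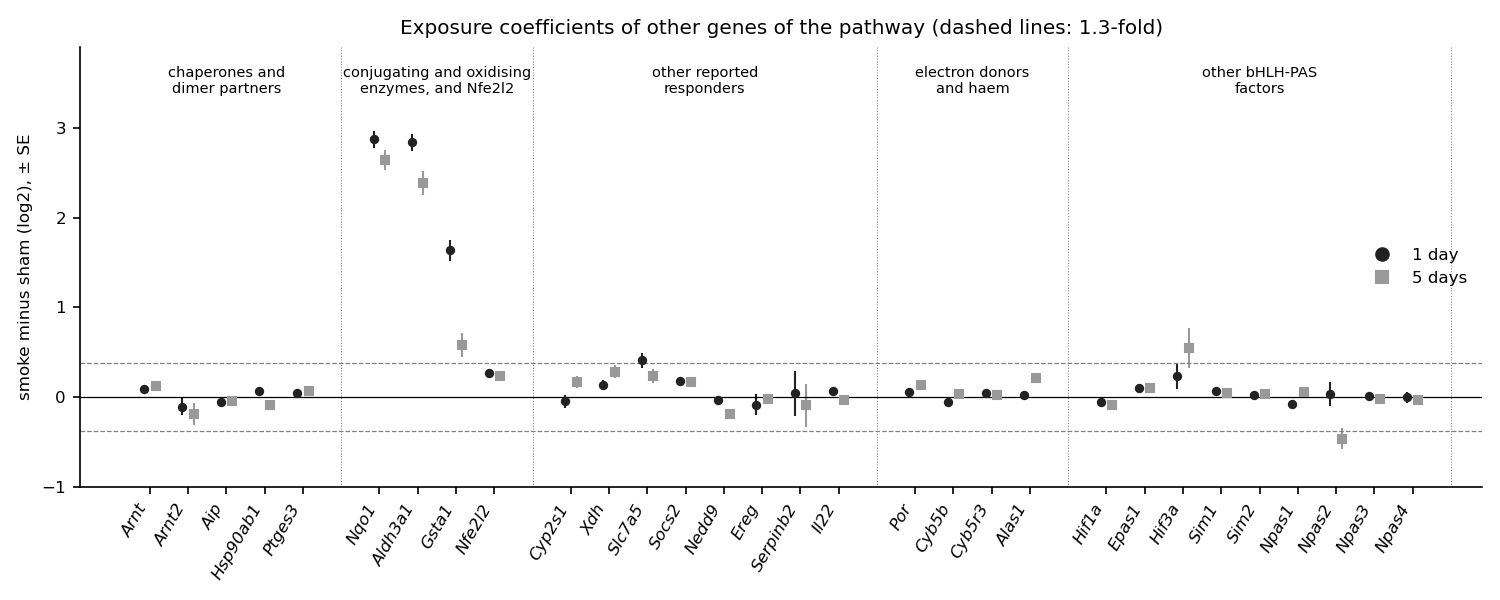
Exposure coefficients (smoke minus sham, log2 scale, bars are 1 SE) of 30 other genes of the pathway at 1 day (black circles) and 5 days (grey squares), grouped by role. Nqo1, Aldh3a1 and Gsta1 lie above the dashed 1.3-fold line at both durations, Slc7a5 just above it at 1 day, and Npas2 below the lower line at 5 days. Hif3a lies above the line at 5 days (0.55) with a wide error and was not called.

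Markers of lung cells were compared between the exposures as well. At 1 day 1 of 3 neutrophil markers was lower, Retnlg by 0.66 (limma adjusted p = 0.0237), while S100a8 and S100a9 were both at -0.45 (limma adjusted p = 0.303 and 0.320). The median coefficient of this list was -0.45, and its mean level ranged from 6.67 to 9.53 in sham-exposed and 6.64 to 8.49 in smoke-exposed mice. At 5 days 1 of 3 club cell markers was higher, Scgb3a1 by 0.59 (limma adjusted p = 3.23e-10), with list means of 12.01 to 12.60 and 12.10 to 12.63. At 5 days 2 of 5 fibroblast markers were lower, Col1a1 by 0.39 and Col3a1 by 0.58, with list means of 9.47 to 10.48 and 9.11 to 10.13. The ordinary linear model called 1 fibroblast marker, and the coefficients of this list ran from -0.58 to 0.09. Ciliated cell markers had a median of -0.19 at 1 day, where Dnah5 was at -0.38 (limma adjusted p = 8.24e-06) and Ccdc39 at -0.31 (limma adjusted p = 2.69e-04), both short of the fold threshold. The other 7 marker lists (endothelial, alveolar type 1, alveolar type 2, smooth muscle, ciliated, alveolar macrophage and hepatocyte) had no called gene for exposure in limma or the ordinary linear model, with 0 to 2 genes each at an unadjusted p under 0.05. The part of these markers in the responses of Cyp1a1, Cyp1b1 and Ahrr was not tested.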

How the data were processed

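RNA was isolated from homogenized right lung and hybridized to Affymetrix moGene2.1 arrays, all on 1 plate. The authors deposited log2 intensities made with Affymetrix Expression Console 1.4 and Partek 6.6 (RMA, with probe-level GC and sequence adjustment, quantile normalization and median polish), after they removed 1 array as mislabelled for exposure on plasma cotinine and gene expression. The genome build was not given in the sources used here. The values, between 1.98 and 13.41, were used as deposited. Rows were named by transcript identifier through the RefSeq table (21053 rows) or the study's tables (780 rows), and 9517 rows had no symbol. Signal over background was not analysed, and precision is limited by how many arrays there are.

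All rows were fitted in R 4.3.3 with limma 3.58.1 (lmFit, eBayes), and adjusted p-values are Benjamini-Hochberg values over all rows. Genotype, exposure and sex were the terms at each duration; exposure, duration and their product over all mice; genotype, sex and duration within each exposure. The genotype and sex terms of the last fit were read in addition to the planned duration term. Strata were contrasts of 16 group means. Correlations used two-sided permutation tests of 100000 resamples within genotype and sex in Python 3.11.15 (SciPy 1.17.1, pandas 2.3.3), and figures matplotlib 3.10.9. Input was read with the data.table package (version 1.17.8).

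The genes named are the 6 members, the 5 genes most correlated with Cyp1a1 over all mice and the 5 among sham-exposed mice, the gene most correlated with each other member, Scnn1b, and genes of the lists of pathway roles and cell types. Of 78 list genes, 69 were found. The members and lists were chosen with earlier results of these data known.

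Alternatives were an ordinary linear model, a trended robust prior, array weights, 1 fit over all mice, median centering, quantile and cyclic loess normalization, omission of the dimmest 30% of rows, 1 row per symbol, no or a 1.5-fold threshold, genotype and sex in the duration fit, the replicate number as a block and each mouse left out. Omission of the 4 arrays least like the others was added after the data were seen. In simulated data with known changes of 0.5 to 4, limma recovered 97.0% of the changes of 0.5 at 1 day and 100% of the larger ones. For exposure by duration, with 200 of 31350 rows changed by 1, it recovered 99.5% and called 18 unchanged rows. Changes of this term as small as that of Ahrr (-0.31) were not simulated, nor were interactions with genotype or sex. Recovery at such sizes is therefore not known.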

Additional observations from a re-analysis of the deposited data

Results flagged for a closer look

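Among 96 combinations of a gene and a group of 4 to 6 mice, 7 had a highest or lowest mouse set apart from the rest by Dixon's test, where chance marks about 1 in 20 groups, or 4.8. Ahr was at 9.85 in βENaC smoke male replicate 4 at 5 days, with the other mice at 10.22 to 10.34, and at 9.61 in WT smoke female replicate 2 at 5 days, with the others at 10.06 to 10.22. That WT smoke female, 1 of the 4 arrays least like the others, also had Tiparp at 9.03, with the others at 8.38 to 8.44. Ahrr was at 3.87 in WT sham female replicate 3 at 5 days (others 3.48 to 3.60). Cyp1a2 was at 3.71 in WT smoke male replicate 3 at 1 day (others 3.22 to 3.37). Cyp1b1 was at 5.74 in WT sham female replicate 3 at 1 day (others 5.30 to 5.35) and at 5.00 in WT sham male replicate 3 at 1 day (others 5.67 to 5.92).

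The exposure response of Ahrr differed between the durations, by -0.31 from 1 to 5 days (limma adjusted p = 0.0439, exposure by duration term, 79 mice). The adjusted p was 0.0554 with the replicate block and above 0.05 in 34 of 79 fits with 1 mouse left out.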

How the results depend on the processing

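Direction was checked for 27 pairs of a member and a comparison, and none reversed under any alternative run. The other pairs and the correlations were not part of this check. Some correlations changed sign without the 2 farthest mice, such as Cyp1a1 with Ahr among smoke-exposed mice at 1 day (r from 0.28 to -0.06). The members called for exposure were 3 at 1 day and 2 at 5 days in limma, and 2 at each with a 1.5-fold threshold, where Ahrr was not called. Without a fold threshold, 4 members passed for exposure at 5 days and 3 for sex at 1 day. The call of Ahrr for exposure by duration was lost with the replicate block (0 members, limma adjusted p = 0.0554), and single omitted mice gave counts from 0 to 1. The replicate block also took the adjusted p of Tiparp at 5 days to 0.0531. Replicate numbers did not pair the mice: deviations of same-numbered mice had a mean correlation of 0.00864 against -0.00179 for others, and 22 of 79 mice correlated best with their own number. Cyp1a2, called for duration among smoke-exposed mice, left the table with the dimmest 30% of rows (0 members), and single omitted mice gave counts from 0 to 1. The calls in the 8 strata numbered 19 of 48, 18 or 19 with single mice omitted and 17 with a 1.5-fold threshold. The adjusted p of Ahrr was 0.0731 at 5 days in 1 fit over all mice, and 0.0671 for sex at 1 day with arrays centered on their medians. That of Tiparp at 1 day was 0.0357 with array weights. The causes were not tested. Dropping the 4 arrays least like the others was an alternative chosen after seeing the data. It lost 1 call, that of Cyp1b1 for genotype among smoke-exposed mice. It moved no count of called members for exposure, sex, duration or genotype at 1 or 5 days. By adjusted p alone for exposure, without a fold threshold, Ahrr at 5 days no longer passed and Tiparp at 1 day did. The mean of all rows of a member was not run, since each member has 1 row. Arrays carry no counts, and for Cyp1a2 and Ahrr, with means of 3.20 and 3.68, signal over background was not analysed.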
